A study of Mus musculus with 13 samples.

Results

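The solute carrier (SLC) transporter genes were described in cultures of the mouse oligodendrocyte lineage with and without Eed, which belongs to the core of Polycomb repressive complex 2 (PRC2). Members were taken from the deposited count table by symbol, as every gene named Slc followed by a family number, the letter a or b and a member number, without the vesicular inhibitory amino acid transporter. This gave 223 of 13549 genes. The RefSeq gene table of GRCm38.p6 lists 345 symbols of this form, that transporter included, and 64.8% of the others were in the count table. The table holds only genes with at least 1 count in every library, so members silent in any library were not analysed here. Of the 223, 92 were called in none of the comparisons.

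RNA was measured in 9 libraries from C57BL/6 mouse brain. Oligodendrocyte precursor cells (OPCs) were grown in DMEM-Sato medium with PDGF and NT-3. Differentiating cells, called immature oligodendrocytes (iOLs) here, were collected on day 2 after T3, thyroid hormone, was added and PDGF removed. The groups were control OPCs (n = 2), Eed conditional knockout (cKO) OPCs (n = 3), control iOLs (n = 2) and Eed cKO iOLs (n = 2), read from the sample titles because the genotype entry says EED cKO for all of them. Control OPC replicate 1 and cKO OPC replicates 1 and 2 came from postnatal day 7 brain, and the other 6 libraries from postnatal day 6. The sources used here do not give the Cre driver. The labels do not say whether replicates were separate animals or cultures, so p-values measure only the spread between these libraries, which may be technical.

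Solute carriers are membrane proteins that move small molecules by facilitated diffusion, exchange or cotransport down ion gradients, and numbered families share sequence and, broadly, substrates. In the brain they clear transmitters from the extracellular space, load synaptic vesicles, supply glucose, lactate, amino acids and choline, and set chloride, calcium, iron and zinc. Oligodendrocytes draw on lipid precursors and iron to make myelin. PRC2 places the trimethyl mark on lysine 27 of histone H3 that accompanies gene silencing, and Eed is the subunit that reads this mark.

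Total counts ran from 17417529 to 19680398 per library. Eed stood at 16.8 to 21.7 CPM (counts scaled to a common library size) in the 4 control libraries and at 11.8 to 14.6 CPM in the 5 cKO libraries, with no overlap. The 7 OPC markers, among them Pdgfra and Cspg4, summed to between 14290 and 18348 CPM in OPCs and between 4973 and 8426 CPM in iOLs. The 8 measured oligodendrocyte markers summed to 6446 and 2182 CPM in control OPCs, to 1988, 2751 and 1013 CPM in cKO OPCs, to 4767 and 4930 CPM in control iOLs and to 1058 and 1483 CPM in cKO iOLs, so control OPC replicate 1 stood above the control iOLs. Of 6 microglia markers 0, and of 8 endothelial markers 3, were in the count table. The solute carriers took 1.72% and 2.53% of the counts in control OPCs, 1.86%, 1.81% and 2.36% in cKO OPCs, 1.54% and 1.56% in control iOLs and 1.52% and 1.56% in cKO iOLs. In the OPC stage the day 6 library was the highest of each genotype. In bulk RNA, fewer cells of a type and less RNA per cell cannot be told apart. The 100 members that overlap another RefSeq gene are uncertain, because the labels name 2 library kits and do not say which of them each library had.

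Loss of Eed was compared with control in OPCs first. With edgeR's quasi-likelihood test and an adjusted p under 0.05 over all genes, 7 of 223 members rose (3.14%), beside 2.94% of all genes, and 0 fell, beside 0.303% of all genes (3.25% of all genes in either direction). The share that rose was near that of all genes. The 7 were Slc30a3, Slc6a17, Slc24a2, Slc16a3, Slc6a3, Slc38a4 and Slc19a2, carriers of zinc, neutral amino acids, calcium, monocarboxylates, dopamine, neutral amino acids and thiamine. At an unadjusted p under 0.05, 31 members were higher and 25 lower, and DESeq2 called 13 higher and 4 lower. The shares of all genes at an unadjusted p or by DESeq2 were not computed, here and below. These counts therefore show nothing particular to the carriers. The median difference over the 223 members was -0.06 (log2), beside -0.02 over all genes.

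The largest difference was in Slc30a3, which loads zinc into synaptic vesicles. It stood at 0.82 and 0.316 CPM in control OPCs and at 13.2, 11.1 and 11.8 CPM in cKO OPCs, a log2 fold change of 4.41 ± 0.39 (standard error) and an adjusted p of 0.00042. All 3 cKO libraries were above both controls, where the gene had 20 counts in both libraries together. Pooled counts gave a ratio of 21.7 (exact 95% binomial interval 13.9 to 35.7, counting error only). From here on, brackets give the log2 fold change, its standard error and edgeR's adjusted p.

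Slc6a17, a vesicular transporter of neutral amino acids, stood at 14.2 and 9.26 CPM in control OPCs and at 53.1, 47.4 and 37.4 CPM in cKO OPCs (1.97 ± 0.22, adjusted p = 0.0014). Slc6a3, the dopamine transporter, went from 3.75 and 4.63 CPM to 13.6, 12.2 and 11.3 CPM (1.56 ± 0.20, adjusted p = 0.0028). Slc38a4, a sodium-coupled neutral amino acid transporter known as an imprinted gene, stood at 3.81 and 4.37 CPM and at 13.2, 10.2 and 9.19 CPM (1.41 ± 0.22, adjusted p = 0.011). In each of these genes the cKO libraries were all above the controls, and those of postnatal day 7 were the highest.

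These 4 genes also rose in cKO iOLs, and they are the members called higher at both stages. The 250 bases before their RefSeq start sites (GRCm38.p6) are printed 5′ to 3′ on the gene's strand, with the CpG dinucleotides in capitals, because promoters rich in CpG are the usual sites of PRC2 in mammals. They are chr5:31108245-31108494 on the minus strand for Slc30a3, chr3:107518019-107518268 on the minus strand for Slc6a17, chr13:73536497-73536746 on the plus strand for Slc6a3 and chr15:97055957-97056206 on the minus strand for Slc38a4.
Slc30a3: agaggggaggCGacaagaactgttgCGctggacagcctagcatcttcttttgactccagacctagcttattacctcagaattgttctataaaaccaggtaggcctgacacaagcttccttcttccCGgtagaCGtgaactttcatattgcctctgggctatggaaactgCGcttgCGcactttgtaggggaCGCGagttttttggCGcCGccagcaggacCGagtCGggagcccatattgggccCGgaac
Slc6a17: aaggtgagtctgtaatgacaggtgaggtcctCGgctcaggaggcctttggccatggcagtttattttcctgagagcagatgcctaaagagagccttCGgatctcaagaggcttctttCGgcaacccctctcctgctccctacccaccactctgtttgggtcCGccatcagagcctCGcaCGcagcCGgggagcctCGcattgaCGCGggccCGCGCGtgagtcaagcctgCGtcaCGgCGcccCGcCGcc
Slc6a3: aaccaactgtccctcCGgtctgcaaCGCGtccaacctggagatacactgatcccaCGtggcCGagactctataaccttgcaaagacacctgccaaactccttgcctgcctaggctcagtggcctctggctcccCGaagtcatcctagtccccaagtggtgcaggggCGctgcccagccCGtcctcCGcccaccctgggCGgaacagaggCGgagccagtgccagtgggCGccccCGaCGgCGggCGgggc
Slc38a4: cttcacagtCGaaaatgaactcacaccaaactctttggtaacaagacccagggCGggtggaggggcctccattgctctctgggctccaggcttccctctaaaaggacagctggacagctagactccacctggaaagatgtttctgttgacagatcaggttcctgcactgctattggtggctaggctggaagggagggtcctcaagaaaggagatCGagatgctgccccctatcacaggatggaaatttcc
They hold 13, 18, 16 and 3 CpG in that order, beside a median of 16 over the 10589 genes of the count table with a promoter sequence. The Slc38a4 window was poor in CpG, and 4.33% of those promoters held fewer.

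The other 3 members called in OPCs were not called in iOLs. Slc24a2, a potassium-dependent sodium and calcium exchanger, stood at 6.21 and 4.16 CPM in control OPCs and at 18.3, 22.9 and 11.4 CPM in cKO OPCs (1.76 ± 0.31, adjusted p = 0.018). Slc16a3, a lactate exporter of glycolytic cells, stood at 0.82 and 0.421 CPM and at 2.5, 1.67 and 2.12 CPM (1.76 ± 0.38, adjusted p = 0.038), from 22 counts in both controls together. Slc19a2, a thiamine transporter, stood at 13.8 and 10.2 CPM and at 24, 26.2 and 19.3 CPM (0.96 ± 0.19, adjusted p = 0.031). The groups did not overlap in any of the 3, and the day 6 cKO library was the lowest for Slc24a2 and Slc19a2.

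All 7 had the same sign within each postnatal day, which is no separate check because the calls were made with these same libraries. Within day 7 the differences ran from 0.86 for Slc19a2 to 3.72 for Slc30a3, and within day 6, with 1 library a genotype, from 0.92 for Slc19a2 to 4.81 for Slc30a3 (log2 CPM with a prior count of 2). Of the 16 alternative fits counted here and below, the fit without a filter repeats the main fit and could not end a call. Slc30a3, Slc6a17 and Slc6a3 passed the test under all 16 alternatives, while Slc38a4 did not without control OPC replicate 1 or cKO OPC replicate 1 (adjusted p up to 0.0651). Slc24a2 lost its call without control OPC 1 or cKO OPC 1 or 2 (up to 0.0694), Slc16a3 without any library but control OPC 2 and cKO OPC 3 (up to 0.144), and Slc19a2 without cKO OPC 1 or 2 or either cKO iOL library (up to 0.122). With only the groups compared, Slc24a2, Slc16a3 and Slc19a2 also lost theirs (adjusted p of 0.0662, 0.125 and 0.113). The count of members called depended on the day 6 libraries. The share of all genes called was not computed for these fits, so whether the change is particular to the carriers was not tested. Without control OPC 2, 27 members were called higher and 16 lower, and without cKO OPC 3, 27 higher and 25 lower, while 3 were called higher without cKO OPC 1 and 4 without cKO OPC 2. Leaving out either control iOL library gave 1 lower call. The 10 neuron markers summed to 943 and 929 CPM in control OPCs and to 1520, 1553 and 1096 CPM in cKO OPCs, and 1 of them was called higher. Map2, which was not called, made up most of each sum, at 649 and 731 CPM in control OPCs and at 1159, 1198 and 841 CPM in cKO OPCs. The part of the neuron markers in the rise of vesicular and dopamine carriers was not tested.

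**Figure D1:**
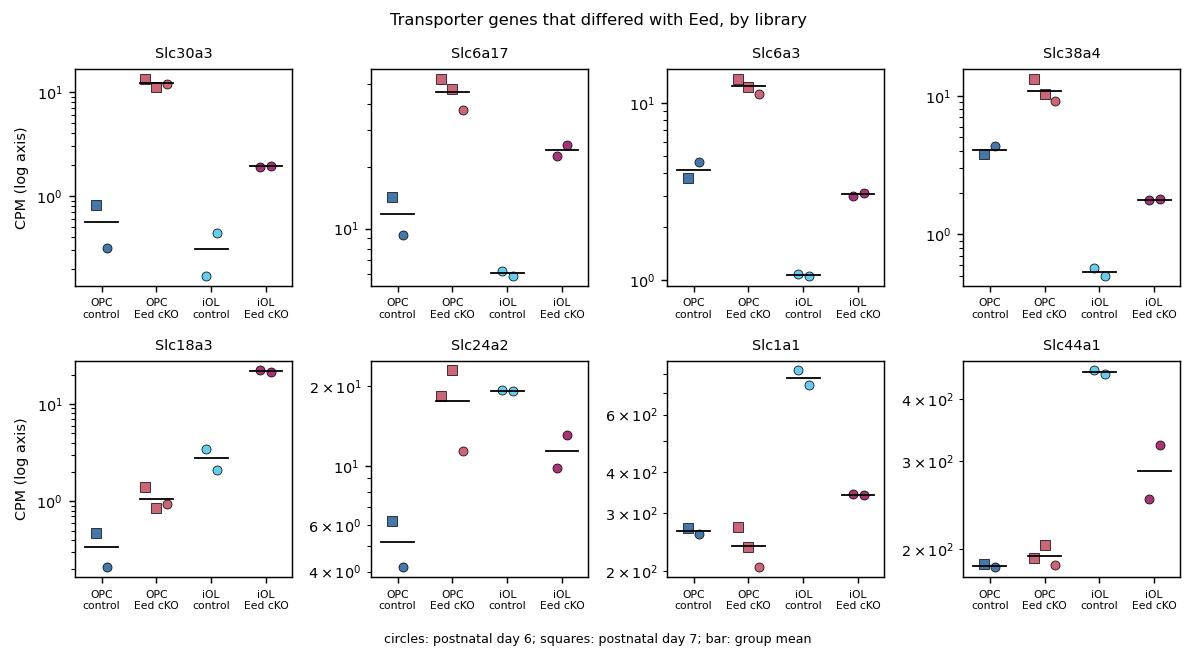
CPM (log axis) of 8 transporter genes in each library of the 4 groups, with a bar at each group mean, circles for postnatal day 6 and squares for day 7. Slc30a3, Slc6a17, Slc6a3 and Slc38a4 lie higher in cKO than in control libraries of the same stage, with no overlap. Slc18a3 is highest in the 2 cKO iOL libraries, at 22.1 and 21.2 CPM.

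In iOLs, 15 of 223 members rose with loss of Eed (6.73%), beside 7.08% of all genes, and 10 fell (4.48%), beside 3.51% of all genes (10.6% in either direction). Both shares were near those of all genes. At an unadjusted p under 0.05, 32 were higher and 24 lower, and DESeq2 called 20 and 16, without computed shares of all genes to set beside them. Members that rose were 5 amino acid carriers, 2 inorganic ion carriers, 2 carriers of neurotransmitters and the like, 2 of sugars and monocarboxylates, 2 fatty acid transport proteins, 1 nucleoside carrier and 1 metal carrier. Those that fell were 3 of the vitamin, choline and lipid class, 2 amino acid carriers, 2 inorganic ion carriers, and 1 each of the metal, mitochondrial and sugar classes.

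Slc18a3, the vesicular acetylcholine transporter, showed the largest difference. It stood at 3.46 and 2.11 CPM in control iOLs and at 22.1 and 21.2 CPM in cKO iOLs (2.96 ± 0.32, adjusted p = 0.001). Both cKO libraries were far above the controls. In OPCs it stood at 0.469 and 0.211 CPM in controls and at 1.41, 0.862 and 0.929 CPM in cKO libraries, which did not overlap but did not pass the test (1.65 ± 0.45, adjusted p = 0.088), and it passed with a replicate block and by DESeq2. The gene lies within the gene for choline acetyltransferase, Chat, which was not in the count table.

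Its promoter window, chr14:32464851-32465100 on the minus strand (GRCm38.p6), held 21 CpG, shown in capitals, more than 67.4% of the promoters of measured genes. It is printed because this gene changed most in cKO iOLs.
Slc18a3: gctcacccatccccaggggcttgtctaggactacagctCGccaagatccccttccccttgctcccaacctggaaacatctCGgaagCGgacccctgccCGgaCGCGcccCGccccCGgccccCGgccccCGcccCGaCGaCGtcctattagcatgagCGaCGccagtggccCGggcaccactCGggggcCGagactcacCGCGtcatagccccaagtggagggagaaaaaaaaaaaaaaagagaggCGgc

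The 4 genes that had risen in OPCs rose again at lower levels. Slc30a3 stood at 0.17 and 0.444 CPM in control iOLs, from 3 and 8 counts, and at 1.92 and 1.96 CPM in cKO iOLs (2.62 ± 0.47, adjusted p = 0.0088), with a pooled ratio of 6.27 (3.31 to 13.1). Slc6a17 stood at 6.25 and 5.88 CPM and at 22.5 and 25.4 CPM (1.98 ± 0.24, adjusted p = 0.0015). Slc38a4 stood at 0.568 and 0.50 CPM and at 1.76 and 1.8 CPM (1.72 ± 0.32, adjusted p = 0.011), and Slc6a3 at 1.08 and 1.05 CPM and at 2.98 and 3.12 CPM (1.51 ± 0.25, adjusted p = 0.0058). The replicates of each group lay close together in Slc6a3, Slc38a4 and Slc6a17, and no cKO value overlapped a control value.

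Among the amino acid carriers of the plasma membrane, Slc1a5, which takes up glutamine and small neutral amino acids, stood at 4.03 and 5.39 CPM in control iOLs and at 8.41 and 14.2 CPM in cKO iOLs (1.26 ± 0.28, adjusted p = 0.022). Slc38a1, a sodium-coupled glutamine transporter, stood at 166 and 182 CPM and at 408 and 334 CPM (1.10 ± 0.25, adjusted p = 0.024). Slc7a8, a light chain that exchanges large neutral amino acids, stood at 14.5 and 22 CPM and at 34.1 and 40.5 CPM (1.03 ± 0.22, adjusted p = 0.018). In each of the 3, both cKO libraries exceeded both controls. The related Slc7a5 and its heavy chain Slc3a2 did not pass the test, at 91.6 and 103 CPM against 104 and 96.4 CPM for Slc7a5 and 134 and 161 CPM against 142 and 143 CPM for Slc3a2. Their ranges overlapped.

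Among the ion and lipid carriers that rose, Slc12a5, the potassium and chloride cotransporter that lowers chloride in mature neurons, stood at 4.88 and 4.39 CPM and at 8.73 and 8.72 CPM (0.91 ± 0.22, adjusted p = 0.028). Slc27a1, a fatty acid transport protein with acyl-CoA synthetase activity, stood at 50.1 and 50.8 CPM and at 122 and 98.3 CPM (1.12 ± 0.26, adjusted p = 0.024). Its relative Slc27a3 stood at 10.7 and 11 CPM and at 18.7 and 19.5 CPM (0.81 ± 0.18, adjusted p = 0.02). The level of each in cKO iOLs lay between those of control iOLs and control OPCs.

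Slc5a3, which takes up the osmolyte myo-inositol with sodium and whose gene overlaps Mrps6, stood at 67.1 and 68.8 CPM in control iOLs and at 115 and 111 CPM in cKO iOLs (0.73 ± 0.16, adjusted p = 0.018). Also called higher, and named after their values were seen, were the adenosine transporter Slc29a1 at 0.78 and the sodium and calcium exchanger Slc8a3 at 0.61 (log2), with adjusted p of 0.0073 and 0.026.

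Among the members that fell, Slc1a1, a neuronal and oligodendroglial carrier of glutamate and cysteine, stood at 819 and 739 CPM in control iOLs and at 344 and 340.4 CPM in cKO iOLs (-1.19 ± 0.16, adjusted p = 0.0021). Slc24a3, a potassium-dependent sodium and calcium exchanger, stood at 66.4 and 77.1 CPM and at 33.7 and 38 CPM (-1.0 ± 0.14, adjusted p = 0.0024). Slc12a2, the sodium, potassium and chloride cotransporter, stood at 335 and 318 CPM and at 214 and 229 CPM (-0.56 ± 0.13, adjusted p = 0.025). Both cKO libraries were below both controls in all 3.

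A pair of choline transporters fell. Slc44a1, a choline transporter of the plasma membrane that is abundant in oligodendrocytes, stood at 457 and 449.9 CPM in control iOLs and at 252 and 324 CPM in cKO iOLs (-0.66 ± 0.14, adjusted p = 0.017). Slc5a7, the high-affinity choline transporter of cholinergic neurons, stood at 7.78 and 11.2 CPM and at 2.13 and 3.01 CPM (-1.88 ± 0.32, adjusted p = 0.0064). It fell while Slc18a3, which works beside it in cholinergic terminals, rose.

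Carriers that serve mitochondria and lipids were also among those that fell. Slc25a1, which exports citrate from mitochondria for fatty acid and sterol synthesis, stood at 204 and 201 CPM and at 108 and 125 CPM (-0.80 ± 0.14, adjusted p = 0.0071). Slc25a37, the mitochondrial iron importer mitoferrin, stood at 87.7 and 82.4 CPM and at 51.8 and 50.1 CPM (-0.74 ± 0.13, adjusted p = 0.0082). Slc27a6, a fatty acid transport protein, stood at 4.6 and 4.11 CPM and at 1.12 and 2.06 CPM (-1.45 ± 0.27, adjusted p = 0.011). The groups were apart in each. Slc45a4 stood at 162 and 142 CPM and at 84.8 and 100.3 CPM (-0.72 ± 0.13, adjusted p = 0.011), and Slc6a19, an amino acid carrier of gut and kidney named after its values were seen, at 2.61 and 2.11 CPM and at 1.01 and 0.952 CPM (-1.26 ± 0.33, adjusted p = 0.038).

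The oligodendrocyte marker sum given above was lower in cKO iOLs, with 4 of 8 markers called lower, and its part in these values was not tested. The neuron markers summed to 1029 and 1006 CPM in control iOLs and to 1077 and 1062 CPM in cKO iOLs, with 3 of 10 called higher. Map2 made up most of each sum, at 813 and 785 CPM in control iOLs and at 725 and 686 CPM in cKO iOLs. The sums therefore say little about the other neuron markers. Slc18a3, Slc6a17, Slc1a1 and Slc24a3 passed under all 16 alternatives. Each of the other 21 lost its call when 1 or more of the 4 iOL libraries was left out (adjusted p up to 0.227), Slc12a2 and Slc6a19 among them also without cKO OPC 1. Without control iOL 1, 2 members were called higher and 4 lower, without control iOL 2, 4 and 5, without cKO iOL 1, 5 and 2, and without cKO iOL 2, 4 and 7.

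**Figure D2:**
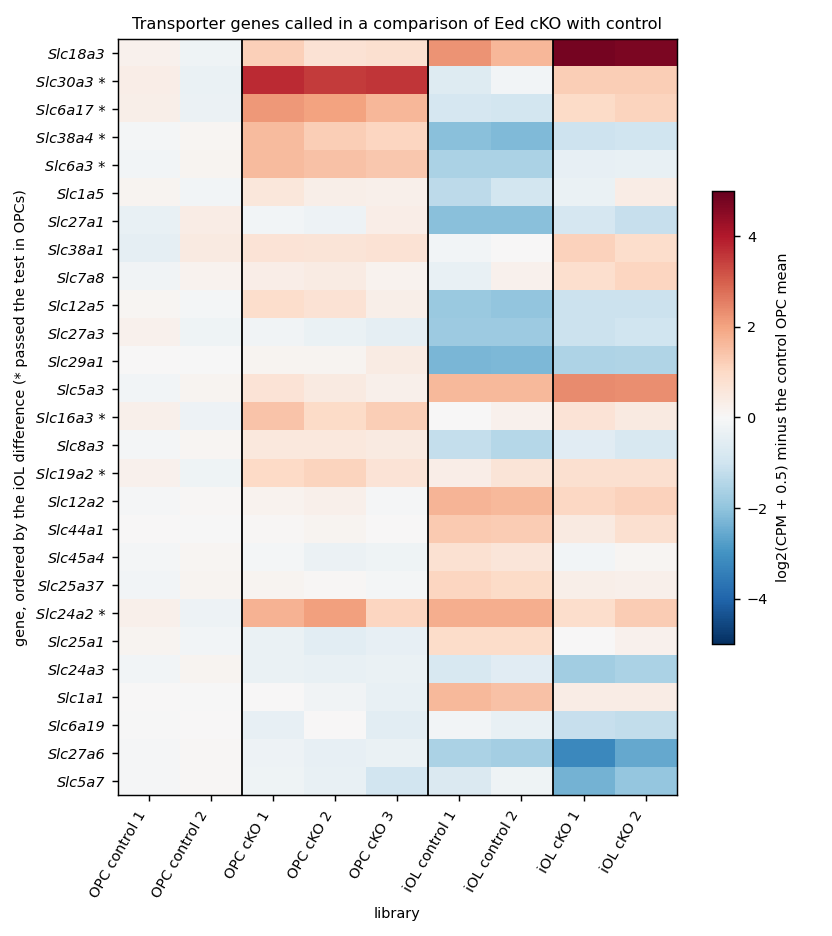
Colour shows log2(CPM + 0.5) minus the mean of the control OPC libraries for transporter genes that passed the test of Eed cKO against control in OPCs or iOLs (rows, with an asterisk for those that passed in OPCs) in each of the 9 libraries (columns). Slc30a3 is highest in the 3 cKO OPC libraries and Slc18a3 in the 2 cKO iOL libraries.

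Whether the effect of Eed differed between stages was tested as the difference of the cKO effects, iOLs minus OPCs. Of 223 members 1 passed higher and 2 lower, beside 0.945% and 0.886% of all genes (1.83% in either direction). At an unadjusted p under 0.05, 19 were higher and 19 lower, and DESeq2 called 2 and 9, again without computed shares of all genes. Slc24a2 had risen in cKO OPCs and in iOLs stood at 19.3 and 19.1 CPM in controls and at 9.79 and 13.1 CPM in cKO libraries, so that the effects differed by -2.51 ± 0.44, adjusted p = 0.032 (log2). In controls the gene rose with differentiation (1.89 ± 0.33, adjusted p = 0.0016), and in cKO cultures the day 6 OPC library, at 11.4 CPM, lay between the 2 iOL libraries.

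For Slc1a1 the effects differed by -1.03 ± 0.21, adjusted p = 0.047. It stood at 271 and 259 CPM in control OPCs and at 272, 236 and 205 CPM in cKO OPCs, where the groups overlapped, and the groups were apart in iOLs. For Slc27a3 they differed by 1.15 ± 0.24, adjusted p = 0.048. That gene stood at 46.3 and 33.7 CPM in control OPCs and at 34.7, 31.7 and 28.8 CPM in cKO OPCs, also overlapping.

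All 3 lost the call without cKO OPC replicate 1 or 2 or any iOL library, with adjusted p up to 0.156 for Slc24a2, 0.199 for Slc1a1 and 0.198 for Slc27a3. Without control OPC 2 or cKO OPC 3 the lower calls numbered 15 and 14, and the higher calls 4 and 9. Without control OPC 1, 4 were called higher. For Slc30a3 and Slc18a3 the difference did not pass (-1.79 ± 0.68, adjusted p = 0.21, and 1.30 ± 0.60, adjusted p = 0.29), so a change of the effect with stage was not detectable in these.

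The Slc1a1 promoter window, chr19:28834885-28835134 on the plus strand (GRCm38.p6), held 27 CpG, more than 83.7% of the promoters of measured genes. It is printed as the member that fell in cKO iOLs under every alternative and differed by stage.
Slc1a1: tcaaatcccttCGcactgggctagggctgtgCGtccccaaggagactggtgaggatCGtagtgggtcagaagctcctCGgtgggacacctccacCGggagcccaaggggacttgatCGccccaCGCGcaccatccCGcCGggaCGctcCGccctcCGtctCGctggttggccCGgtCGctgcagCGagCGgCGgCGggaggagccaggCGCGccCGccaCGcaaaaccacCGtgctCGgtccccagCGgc

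Differentiation in control cultures was compared next, as control iOLs against control OPCs. Of 223 members 31 rose (13.9%), beside 21% of all genes, and 72 fell (32.3%), beside 25.3% of all genes (46.3% in either direction). The median difference was -0.19 over the members and -0.06 over all genes (log2). All 103 calls kept their sign when the iOLs were set against the day 6 or the day 7 OPC library alone. This is no separate check, because the calls were made with these same libraries.

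By class, 16 of 38 amino acid carriers fell and 4 rose, 11 of 29 sugar and monocarboxylate carriers fell and 3 rose, and 12 of 35 inorganic ion carriers fell and 3 rose. Of the 10 carriers of neurotransmitters, osmolytes and creatine, 6 fell and 3 rose. Of the 38 mitochondrial carriers, 8 rose (21.1%) and 3 fell (7.89%), beside 21% and 25.3% of all genes. Of the 30 metal carriers 5 rose and 8 fell, of the 14 nucleoside and nucleotide sugar carriers 0 rose (2 at an unadjusted p under 0.05 and 2 by DESeq2) and 4 fell, and of the 29 vitamin, choline, lipid and other carriers 5 rose and 12 fell. The median difference ran from -1.03 in the neurotransmitter class to 0.02 in the metal and mitochondrial classes.

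**Figure D3:**
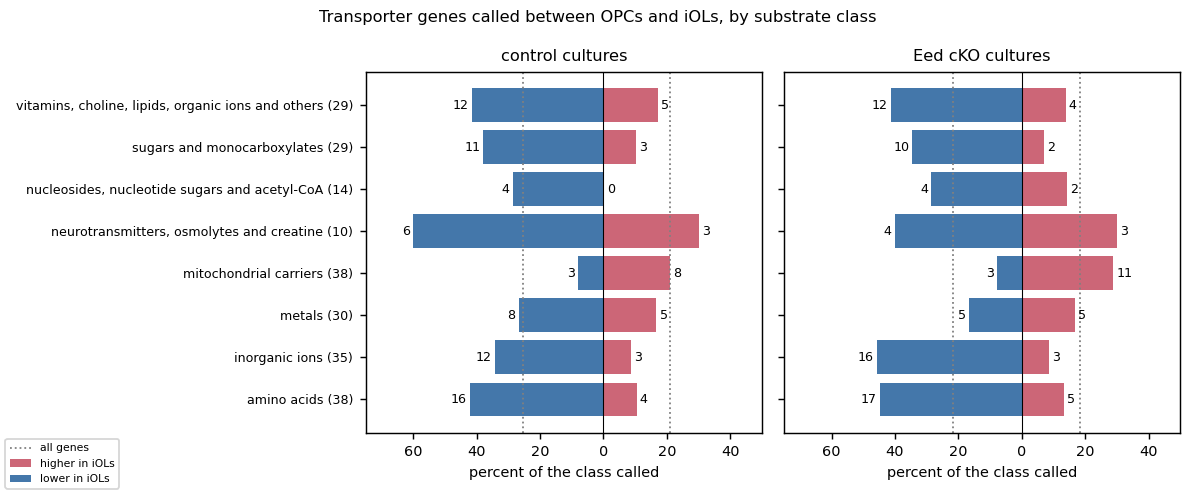
Bars show the percent of each substrate class (rows, with the number of members in brackets) that was called higher (right) or lower (left) in iOLs than in OPCs, in control and Eed cKO cultures, with counts beside the bars and dotted lines for all genes. Of the 38 mitochondrial carriers, 8 (21.1%) were called higher and 3 (7.89%) lower in controls, beside 21% and 25.3% of all genes. In cKO cultures 11 (28.9%) were called higher and 3 (7.89%) lower, beside 18.5% and 21.8% of all genes.

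Several of the carriers that fell clear transmitters. Slc6a11, a GABA transporter typical of astrocytes, stood at 608 and 2084 CPM in control OPCs and at 44.8 and 44.3 CPM in control iOLs (-4.92 ± 0.65, adjusted p = 0.00031). Slc1a2, the main glial glutamate transporter, stood at 784 and 2167 CPM and at 390.3 and 351 CPM (-1.99 ± 0.49, adjusted p = 0.0086). The iOL libraries were below both OPC libraries in both genes, and the day 6 OPC library was the higher one. The 9 measured astrocyte markers summed to 2243 CPM at day 7 and 5227 CPM at day 6 in control OPCs and to 5891 and 6011 CPM in control iOLs, where Gfap made up most of the summed CPM, with 2 called higher and 4 lower. Their part in the values of these glial carriers was not tested.

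Slc1a3, the other glial glutamate transporter, did not pass, at 876 and 2980.3 CPM in control OPCs and 631 and 690.5 CPM in control iOLs (-1.55 ± 0.59, adjusted p = 0.058). Slc1a6, a glutamate transporter known from Purkinje cells whose gene overlaps Ccdc105, stood at 28 and 19.1 CPM and at 3.01 and 3.44 CPM (-2.86 ± 0.23, adjusted p = 1.8e-05). The vesicular glutamate transporter Slc17a7 stood at 8.14 and 1.26 CPM and at 0.17 and 0.50 CPM (-3.77 ± 0.86, adjusted p = 0.0061), where 3 and 9 counts stand behind the iOL values. Slc17a6, its relative, stood at 2.52 and 0.474 CPM and at 0.284 and 0.111 CPM (-2.87 ± 0.82, adjusted p = 0.018), from 5 and 2 counts in iOLs. Pooled counts of control OPCs over iOLs gave ratios of 13.4 (7.47 to 26.5) for Slc17a7 and 7.34 (3.32 to 19.1) for Slc17a6. Of the 10 neuron markers 4 were called lower and 1 higher. Against these, Slc1a1 rose, from 271 and 259 CPM to 819 and 739 CPM (1.56 ± 0.16, adjusted p = 7.2e-05).

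Of the amino acid carriers, Slc7a10, which exchanges D-serine and small neutral amino acids and overlaps Lrp3, stood at 109 and 199 CPM in control OPCs and at 2.44 and 4.39 CPM in control iOLs (-5.49 ± 0.53, adjusted p = 5.3e-05). Slc1a4, an exchanger of serine and alanine, stood at 294 and 622 CPM and at 95.8 and 90.9 CPM (-2.29 ± 0.35, adjusted p = 0.00069). Slc7a5, the large neutral amino acid transporter, stood at 259 and 338 CPM and at 91.6 and 103 CPM (-1.61 ± 0.15, adjusted p = 5.3e-05). Its partner Slc3a2 stood at 329 and 357 CPM and at 134 and 161 CPM (-1.21 ± 0.16, adjusted p = 0.00034). In all 4 both iOL libraries were below both OPC libraries.

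Slc38a4 fell as well, by 2.92 on the log2 scale, and so did Slc1a5, by 1.20, and Slc6a17, by 0.95. The cystine and glutamate exchanger Slc7a11 stood at 31 and 102 CPM and at 20.6 and 37.1 CPM, and did not pass (-1.21 ± 0.60, adjusted p = 0.13). Slc38a1 and Slc38a2, sodium-coupled glutamine transporters, also did not pass, with Slc38a2 at 246 and 242 CPM and 246 and 256 CPM. Of those that rose, Slc7a14, a lysosomal relative of the cationic amino acid transporters, stood at 19.3 and 22.6 CPM and at 90.5 and 84.7 CPM (2.06 ± 0.22, adjusted p = 8.6e-05). Slc43a3, known as a purine nucleobase transporter of an amino acid carrier family, stood at 2.4 and 5.32 CPM and at 11 and 23.8 CPM (2.16 ± 0.56, adjusted p = 0.012).

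Among the carriers of sugars, monocarboxylates and related acids, the largest falls were in the plasma membrane transporters of citric acid cycle intermediates. Slc13a3, for dicarboxylates, stood at 22.8 and 62.2 CPM in control OPCs and at 3.92 and 3.22 CPM in control iOLs (-3.57 ± 0.69, adjusted p = 0.0025). Slc13a5, for citrate, stood at 56.5 and 111 CPM and at 9.77 and 9.27 CPM (-3.14 ± 0.33, adjusted p = 8e-05). The glucose transporter Slc2a3 fell by 0.41 (log2). Slc2a1, the glucose transporter of most brain cells, did not pass, at 30.1 and 46.6 CPM and 37.2 and 41.7 CPM.

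The lactate and pyruvate carriers had small differences. Slc16a1, the monocarboxylate transporter by which oligodendrocytes pass lactate to axons, stood at 57.1 and 69.1 CPM in control OPCs and at 60.7 and 63 CPM in control iOLs, and did not pass. Slc16a7, of high affinity, rose by 0.64 (log2), from 16.1 and 15.8 CPM to 23.1 and 26.6 CPM. Slc5a3, the myo-inositol carrier, rose by 1.64, from 19.6 and 24.1 CPM to 67.1 and 68.8 CPM.

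Of the metal carriers, Slc25a37, the mitochondrial iron importer, rose from 38.4 and 45.3 CPM to 87.7 and 82.4 CPM (1.02 ± 0.13, adjusted p = 0.00028). Slc31a2, a copper transporter, rose by 0.82 and Slc39a1, a zinc importer, by 0.57 (log2). Slc39a8, which imports zinc and manganese, stood at 6.21 and 13.6 CPM and at 1.1 and 1.17 CPM (-3.10 ± 0.45, adjusted p = 0.0005). The zinc exporter Slc30a1 fell by 0.48. The iron importer Slc11a2 stood at 53.7 and 69.7 CPM and 58.1 and 70.3 CPM and the iron exporter Slc40a1 at 0.644 and 1.63 CPM and 1.08 and 1.39 CPM, and the zinc importers Slc39a6 and Slc39a10 did not pass either.

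Of the inorganic ion carriers, Slc12a2, which brings chloride in, rose from 99.3 and 107 CPM to 335 and 318 CPM (1.66 ± 0.13, adjusted p = 2e-05), and Slc12a5, which takes chloride out, fell from 20.2 and 17.6 CPM to 4.88 and 4.39 CPM (-2.03 ± 0.22, adjusted p = 9.4e-05). Slc26a2, a sulfate transporter, rose from 18.6 and 23 CPM to 102 and 84.1 CPM (2.16 ± 0.22, adjusted p = 6.9e-05). Slc4a10, a sodium-driven bicarbonate exchanger, fell from 50.3 and 64.5 CPM to 11.1 and 10.6 CPM (-2.40 ± 0.21, adjusted p = 3.5e-05). In these 4 the replicates of a group were close beside the gap between groups. The bicarbonate cotransporter Slc4a4 and the sodium and calcium exchanger Slc8a1 did not pass, and Slc4a4 stood at 241 and 1003 CPM in OPCs and 229 and 253 CPM in iOLs.

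Of the remaining classes, Slc44a1, the choline carrier, rose from 187 and 184 CPM to 457 and 449.9 CPM (1.29 ± 0.14, adjusted p = 0.00011), and Slc6a8, which takes up creatine, from 107 and 112 CPM to 204 and 188 CPM (0.84 ± 0.12, adjusted p = 0.0005). Slc25a1, the citrate carrier, rose by 0.92 (log2), while the mitochondrial carriers Slc25a4, of ADP and ATP, and Slc25a3, of phosphate, did not pass. Slc25a34 fell from 7.21 and 12.3 CPM to 0.625 and 0.611 CPM (-3.97 ± 0.66, adjusted p = 0.0011). The urea transporter Slc14a1 rose from 38.5 and 103 CPM to 234 and 221 CPM (1.68 ± 0.56, adjusted p = 0.033), and its relative Slc14a2 fell from 4.63 and 9.42 CPM to 0.284 and 0.333 CPM (-4.48 ± 1.03, adjusted p = 0.0064). Slc22a17, a receptor for lipocalin, fell by 0.82 and its family member Slc22a23 rose by 1.18, and Slc35a4 and Slc35b2 of the nucleotide sugar family did not pass.

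Several of these calls rested on single libraries or on the fit. Slc1a2 lost its call without control iOL 2 (adjusted p = 0.0606), Slc1a5 without control iOL 1 (0.0675), Slc17a7 without control iOL 1 (0.0523), Slc16a7 without control iOL 2 (0.118), and Slc17a6, Slc43a3, Slc31a2 and Slc6a17 without control OPC 1 or control iOL 2 (up to 0.157, 0.0963, 0.0986 and 0.0663 by edgeR). Slc14a1, Slc39a1, Slc30a1 and Slc2a3 lost theirs without either control iOL library, Slc14a1, Slc39a1 and Slc2a3 also without control OPC 1, and Slc2a3 without control OPC 2, cKO OPC 2 or either cKO iOL library as well (up to 0.155, 0.0897, 0.0963 and 0.185). With only the groups compared, Slc17a7, Slc6a17, Slc30a1 and Slc2a3 did not pass (adjusted p of 0.0547, 0.0547, 0.0831 and 0.0693), nor did Slc2a3 with postnatal day as a term (0.0606), or Slc14a1 and Slc2a3 by DESeq2 (0.0508 and 0.0502). Without control iOL 2, 19 members were called higher in place of 31.

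**Figure D4:**
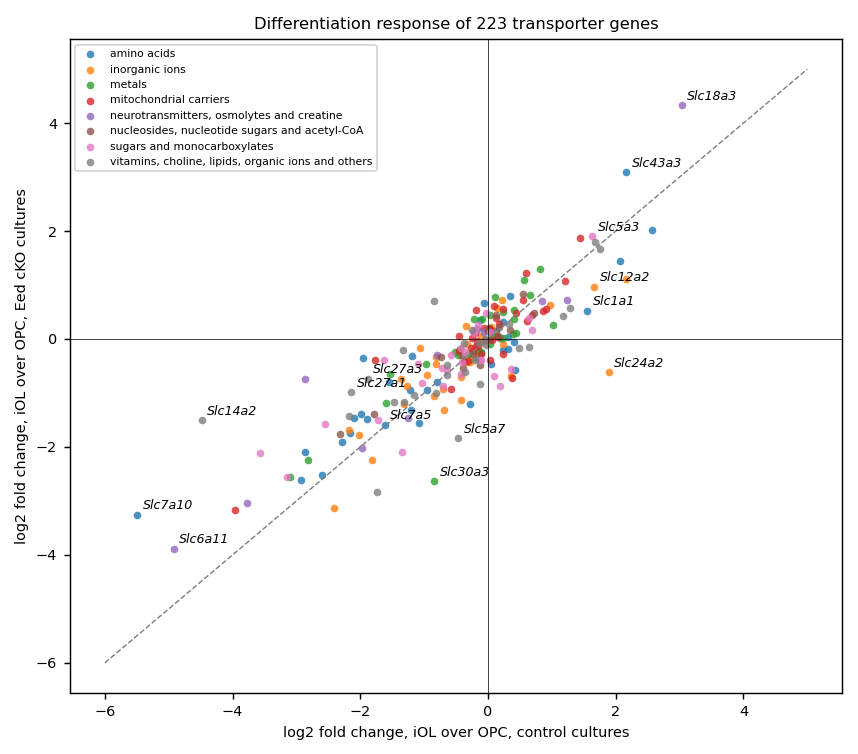
Each point is 1 of 223 transporter genes, coloured by substrate class, with the log2 fold change of iOLs over OPCs in control cultures (horizontal) and in Eed cKO cultures (vertical). The dashed line marks equal values, Slc24a2 lies at 1.89 and -0.62, and Slc18a3 lies at 3.03 and 4.34.

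In cKO cultures 35 of 223 members rose from OPCs to iOLs (15.7%), beside 18.5% of all genes, and 71 fell (31.8%), beside 21.8% of all genes (40.3% in either direction). The median difference was -0.22 over the members and -0.00 over all genes (log2). The 2 differentiation comparisons share no library. In both, 25 members rose and 56 fell, with 0 called in opposite directions. The matching shares over all genes were not computed, so this is not shown to be particular to the carriers. Across the 223 members the fold changes had a Pearson r of 0.864, beside 0.823 over all genes. It is given as a description because genes are not independent replicates. All 106 calls kept their sign against the OPC libraries of either day alone, again in the libraries that gave the calls. By class, 17 amino acid carriers fell and 5 rose, 16 inorganic ion carriers fell and 3 rose, and 11 mitochondrial carriers rose and 3 fell.

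Slc18a3 rose most, from 1.41, 0.862 and 0.929 CPM in cKO OPCs to 22.1 and 21.2 CPM in cKO iOLs (4.34 ± 0.30, adjusted p = 1e-05). Slc43a3 rose from 1.57, 2.37 and 4.9 CPM to 19.3 and 31.2 CPM (3.09 ± 0.50, adjusted p = 0.0012), and Slc5a3 from 34.8, 29.6 and 26 CPM to 115 and 111 CPM (1.91 ± 0.14, adjusted p = 1.4e-05). Slc14a1, Slc7a14, Slc31a2, Slc25a47 and Slc26a2 followed, at 1.79, 1.45, 1.30, 1.23 and 1.10. Each of these but Slc25a47 had also passed in controls.

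Slc6a11 fell most, from 615, 613 and 1489.9 CPM in cKO OPCs to 61.3 and 61.5 CPM in cKO iOLs (-3.88 ± 0.60, adjusted p = 0.00087). Slc7a10 fell from 81.4, 81.1 and 166 CPM to 8.89 and 14 CPM (-3.26 ± 0.44, adjusted p = 0.00042), and Slc4a10 from 90.5, 97.7 and 64.8 CPM to 9.79 and 9.57 CPM (-3.12 ± 0.21, adjusted p = 8.5e-06). Slc25a34, Slc17a7, Slc27a6, Slc30a3 and Slc38a4 stood at -3.16, -3.03, -2.84, -2.63 and -2.61. Slc30a3, which fell in cKO cultures, did not pass in controls (-0.84 ± 0.56, adjusted p = 0.25), and the difference between genotypes did not pass, as given above.

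Values for some carriers of glutamate, chloride, choline and citrate are set side by side. Slc1a1 rose by 0.52 against 1.56 in controls, Slc12a2 by 0.97 against 1.66, Slc44a1 by 0.57 against 1.29 and Slc25a1 by 0.55 against 0.92 (log2). The difference between genotypes passed the test for Slc1a1, and those of Slc12a2 and Slc44a1 had adjusted p of 0.086 and 0.093. Slc25a37, Slc45a4 and Slc24a2, which rose in controls, did not pass in cKO cultures, at 0.25, 0.17 and -0.62. The amino acid carriers Slc7a5 and Slc3a2 fell by 1.59 and 0.94, beside 1.61 and 1.21 in controls.

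The calls of Slc14a1, Slc1a1, Slc17a7, Slc25a1 and Slc44a1 in cKO cultures ended without cKO iOL 2 (adjusted p up to 0.0989), for Slc14a1 and Slc1a1 also without cKO OPC 2, for Slc14a1 without cKO OPC 1, and for Slc1a1 and Slc17a7 without cKO iOL 1. Without cKO iOL 2, 16 members were called higher, without cKO OPC 2, 23, and without cKO iOL 1, 41 were called lower.

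Within OPCs the 2 postnatal days differed for a part of the family. In 34 of 223 members the day 6 library was higher by more than 0.5 (log2 CPM) in both genotypes, and in 2 it was lower, beside 5.34% and 3.57% of all genes. The median difference of day 6 from day 7 was 0.22 in controls and 0.08 in cKO libraries over the members, and -0.03 and -0.00 over all genes. With 1 library of day 6 per genotype no test was made, and day and library cannot be told apart.

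Slc1a3 stood at 876 CPM at day 7 and 2980 CPM at day 6 in controls, and at 962 and 1039 CPM at day 7 and 2696 CPM at day 6 in cKO OPCs. Slc1a2, Slc4a4, Slc6a11, Slc7a10, Slc7a11, Slc13a3, Slc14a1 and Slc14a2 were likewise highest in the day 6 library of each genotype. Slc4a4, for one, stood at 241 and 1003 CPM in controls and at 276, 287 and 689.9 CPM in cKO OPCs. The astrocyte marker sum was also highest there, at 1413 and 1460 CPM at day 7 and 3421 CPM at day 6 in cKO OPCs, and it was 8296 and 10359 CPM in cKO iOLs. Its part in these differences was not tested.

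**Figure D5:**
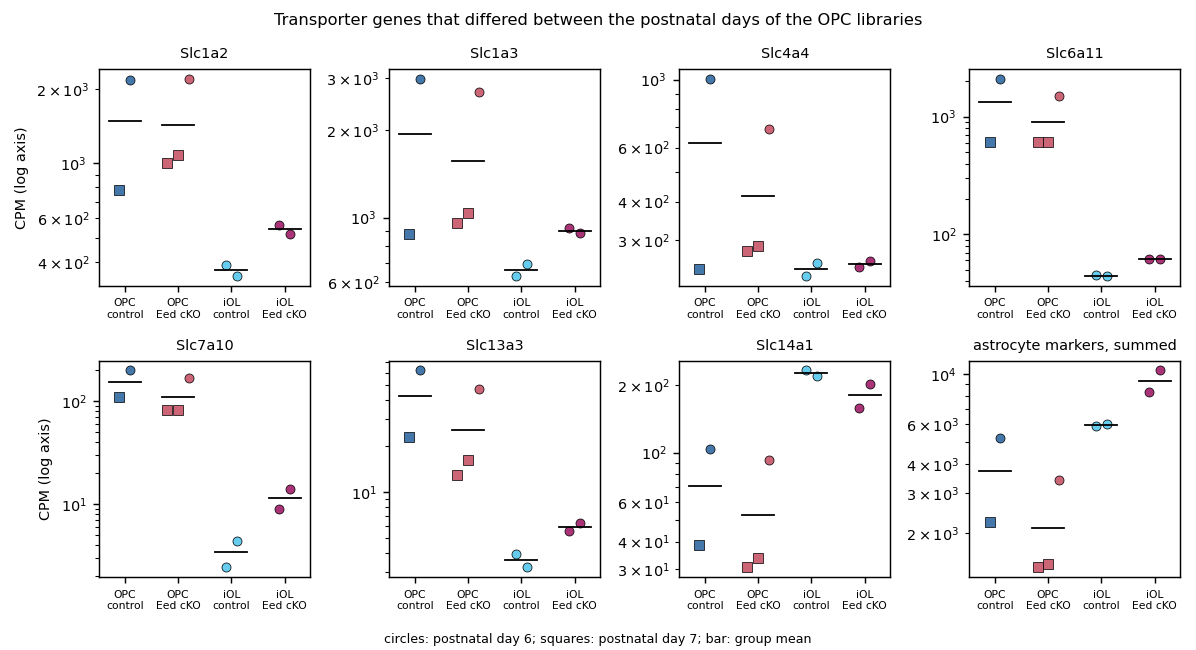
CPM (log axis) of 7 transporter genes, and of the 9 astrocyte markers summed, in each library of the 4 groups, with a bar at each group mean, circles for postnatal day 6 and squares for day 7. In OPCs the day 6 libraries stand above the day 7 libraries in every panel, as for Slc1a3 at 2980 against 876 CPM in controls.

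Genes outside the family that work with these carriers were listed, 37 in all, and all were measured. They include chaperones of the monocarboxylate transporters, lactate dehydrogenases, hexokinases, metallothioneins and organic anion transporters of the Slco family. In OPCs 0 of 37 passed in either direction with loss of Eed by edgeR, with 2 higher and 5 lower at an unadjusted p under 0.05 and 1 and 2 called by DESeq2. In iOLs 2 rose and 0 fell, with 3 lower at an unadjusted p under 0.05 and 1 lower by DESeq2. With differentiation 11 rose and 9 fell in controls, and 14 rose and 7 fell in cKO cultures. Of all genes, 2.94% rose and 0.303% fell with loss of Eed in OPCs, and 7.08% and 3.51% in iOLs. For differentiation the shares of all genes were 21% and 25.3% in controls, and 18.5% and 21.8% in cKO cultures.

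Ldhb, the lactate dehydrogenase subunit that favours pyruvate, stood at 111 and 109 CPM in control iOLs and at 208 and 189 CPM in cKO iOLs (0.86 ± 0.18, adjusted p = 0.017), and its cKO effects differed between stages by 1.22 ± 0.24, adjusted p = 0.043. Both cKO iOL libraries were above both controls, and the call in iOLs ended without any 1 of the 4 iOL libraries (adjusted p up to 0.122). The stage difference ended without any single library but control OPC 2 and cKO OPC 3 (up to 0.188).

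With differentiation in controls, the metallothionein Mt2 rose by 1.76 and the hexokinase Hk2 by 1.29 (log2). Slco4a1, an organic anion transporter, fell by 2.47, a call that ended without control OPC 2 or either control iOL library or with only the groups compared (adjusted p up to 0.186). In cKO cultures Mt2 rose by 2.57 and Atp1b2, a sodium pump beta subunit, by 1.98. Txnip, which lowers glucose uptake, fell by 1.37, a call that ended without either cKO iOL library (adjusted p up to 0.116).

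Promoter sequence was at hand for 172 of 223 members. The 250 bases before the start held a median of 14 CpG in members and 16 in the 10589 measured genes with a sequence. In the 15 of 18 members with a sequence that rose in cKO cells at either stage the median was 13, and in 6 of the 10 that fell in cKO iOLs it was 26. Motifs were searched in the whole promoter sequence at hand, which was not cut to these 250 bases. The E-box CACGTG, searched on both strands, was found in 25 members (14.5%) and in 10.1% of the measured genes. The sequence TGATGNAA, bound by the amino acid response factor Atf4 and searched on both strands, was found in 5 members (2.91%) and in 2.09% of measured genes, and in 2 of 10 amino acid carriers with a sequence that fell in control iOLs. Neither motif contains the other, and a match describes the letters alone.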

How the data were processed

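The table as deposited gives raw read counts of genes in 9 libraries. Per the submitters' processing notes, cutadapt 1.14, STAR 2.6.0, featureCounts of Subread 1.6.2 and the mm10 build were used. Its 13549 genes all have 1 or more counts in each library, and 10 or more in 4 or more libraries. A second header line was left out. Chromatin immunoprecipitation samples were not analysed here.

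Counts were fitted with edgeR 4.0.16 under R 4.3.3, limma 3.58.1 being loaded with it, using 4 group means over the 9 libraries, TMM factors, a filter at a minimum count of 10 that removed 0 genes, and the quasi-likelihood test with Benjamini-Hochberg adjustment over all genes. Calls are at an adjusted p under 0.05. The biological coefficient of variation was 16.3%, with 5 residual degrees of freedom. Each gene had a single spread for all groups, so p-values and ± values of the iOL comparison also carry the spread between OPC libraries. That spread was unequal. The chi-square per degree of freedom over all genes, between libraries of a group, was 106 in control OPCs and 7.67 to 47.4 in cKO OPCs. It was 6.48 in control iOLs and 13.3 in cKO iOLs. CPM used TMM-scaled library sizes and no transcript lengths, so a rank by mean CPM or a share of a marker sum is one of reads and not of transcripts. The ± values are standard errors of the log2 differences, taken as their size divided by the root of the F statistic, and they are too narrow for genes with few counts. Fold changes and calls were tested on simulated data, in which every library had the same baseline and genes changed in a single group. The simulated libraries had no postnatal day effect and no unequal spread between groups, so these features were not covered. Ratios with exact binomial intervals pool a group's libraries.

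Compared were cKO with control OPCs, cKO with control iOLs, iOLs with OPCs of each genotype, and the difference of these. Alternatives were RLE size factors, other filters, a replicate block, postnatal day as a term, only the groups compared, each library left out, and DESeq2 1.42.0. Among the other filters, the fit without a filter repeats the main fit, so passing it is no check. Members, substrate classes, marker and partner lists were chosen with earlier results of these data known. Named are the 8 members with the largest fold each way in each comparison of 2 groups (called, no overlap of the groups, and a mean of 5 CPM or more in the higher one), those called in the difference, the 2 with the highest mean CPM of each class, a list of carriers irrespective of value, and the partner genes with the 2 largest called folds each way. Members called in a cKO comparison outside this rule were named after their values were seen. Some genes that the rule names are not reported here. Promoter sequences are from RefSeq, GRCm38.p6, with 1 window a gene, that of the outermost start among the windows at hand.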

Additional observations from a re-analysis of the deposited data

Results flagged for a closer look

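In 3 transporter genes the effect of losing Eed differed between the stages by a test of the difference itself, iOLs minus OPCs, with edgeR's quasi-likelihood test. The difference was -2.51 ± 0.44, adjusted p = 0.032 for Slc24a2, -1.03 ± 0.21, adjusted p = 0.047 for Slc1a1 and 1.15 ± 0.24, adjusted p = 0.048 for Slc27a3 (log2). In Slc24a2 all 3 cKO OPC libraries were above both control OPC libraries, and both cKO iOL libraries were below both control iOL libraries. In Slc1a1 the groups overlapped in OPCs and both cKO iOL libraries were lower. In Slc27a3 they overlapped in OPCs and both cKO iOL libraries were higher. Each call ended when cKO OPC replicate 1 or 2 or any iOL library was left out. No group had the 4 libraries that a check for outlying libraries needs.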

How the results depend on the processing

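RLE size factors and a filter of 1 CPM in 4 libraries left each count of called members within 1.5 times the reported one. The fit without a filter repeats the main fit, whose filter removed 0 genes. It could not change a call, although it is counted among the 16 alternatives. Of 151 called pairs of a gene and a comparison named in the text or by the naming rule, 87 passed under every one of 16 alternatives, and 0 changed sign. In OPCs the members higher and lower with loss of Eed numbered 7 and 0, and became 13 and 11 with postnatal day as a term, 4 and 1 with only the groups compared, and 13 and 4 with DESeq2. In iOLs, 15 and 10 became 36 and 20 with postnatal day, 44 and 27 with only the groups compared, and the lower 16 with DESeq2. For the difference of differentiation, 1 and 2 became 9 and 9 with postnatal day and 2 and 9 with DESeq2. The share of all genes called under each alternative, here and below, was not computed. Whether these changes are particular to the carriers, and their causes, were not tested.

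Leaving out 1 library gave 3 to 27 higher and 0 to 25 lower in OPCs, 2 to 22 and 2 to 15 in iOLs, 19 to 46 and 55 to 83 for differentiation in controls, 16 to 42 and 41 to 86 in cKO cultures, and 0 to 9 and 0 to 15 for the difference. Where 1 library was left in a group, it was taken to vary like the other groups.

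With a replicate block the counts were 26 and 23 in OPCs, 22 and 12 in iOLs, 38 and 84 and 36 and 68 for differentiation, and 9 and 10 for the difference. The numbers were not taken to pair libraries: deviations of same-numbered libraries correlated at 0.313 and -0.352 in OPCs, 0.239 and 0.239 in iOLs, and between -0.0843 and 0.0426 across stages. Depth limits genes such as Slc30a3 and Slc16a3, which had 20 and 22 counts in both control OPC libraries together.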

Other observations

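Of the 3 endothelial markers measured, 2 were called higher in cKO than in control OPCs, and 1 of them, Flt1, stood at 0.351 and 0.158 CPM in control OPCs and at 4.61, 5.98 and 5.16 CPM in cKO OPCs, while Pecam1, Cldn5, Cdh5, Tek and Tie1 were not in the count table. Among the 10 neuron markers, Gad2 alone was called in OPCs, and the others did not pass. Gad2 stood at 4.10 and 3.84 CPM in control OPCs and at 25.9, 24.4 and 19.4 CPM in cKO OPCs. These values, chosen after they were seen, stand beside the rise of Slc30a3, Slc6a17 and Slc6a3 in the same libraries, and a relation between them was not tested. In both genes every cKO library was above both controls.

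Hbb-b1, a haemoglobin gene, stood at 2877 and 562 CPM in control OPCs, at 954, 1044 and 780.5 CPM in cKO OPCs and at 1.17 CPM or less in the 4 iOL libraries.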
